A study of Mus musculus with 16 samples.

Results

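The 35 interferon response genes described here are mouse genes that are switched on by type I interferons or by interferon gamma, among them nucleic acid sensors, transcription factors, antiviral effectors and parts of the antigen processing machinery. They were found on the arrays by matching the RefSeq accession of each probe to the gene. Of the 35 genes, 33 had at least 1 probe (50 probes of 56605), and all 33 were among the 13725 genes tested. Mx1 and Mx2, which encode antiviral GTPases, had no matched probe and were not analysed here. The arrays measured total RNA from the heart apex of 16 male C57Bl/6 mice, 4 in each of 4 groups, and the comparisons asked what losing AKT1, AKT2 or both kinases from heart muscle cells does to gene expression. Every mouse, controls included, was heterozygous for the MHC-mercremer transgene, a tamoxifen-inducible Cre recombinase driven by the αMHC promoter of heart muscle cells. AKT1 KO mice were in addition homozygous for a floxed Akt1 gene, AKT2 KO mice for a floxed Akt2 gene, and the AKT1+AKT2 DKO mice (DKO) for both. All 4 groups were given 500 µg hydroxytamoxifen per day for 5 days at the age of 3 months and were sampled 21 days after induction, so that "untreated" in the sample titles refers to the absence of any further treatment. Only heart muscle cells drive the Cre, and the other cells of the apex keep both kinases. The RNA comes from the whole tissue, so a change in the number of cells of a type and a change in RNA per cell cannot be told apart.

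Type I interferons bind the IFNAR receptor and interferon gamma binds the IFNGR receptor, and both act through JAK kinases and STAT transcription factors. A complex that holds STAT2 and IRF9 binds the interferon-stimulated response element (ISRE) of many antiviral genes, while the gamma-activated sequence (GAS) serves the response of genes such as Irf1 to interferon gamma. In the heart, as in other tissues, muscle cells, endothelial cells, fibroblasts and resident macrophages can all mount this response, and cytosolic RNA and DNA sensors can start it in the absence of infection.

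Stretches before the start site that hold letters of the ISRE or the GAS are shown for some members. These are members on which the results turn or that stand for a role. The RefSeq promoter table (GRCm38.p6) held 25 of the 35 members in 29 windows that start 250 bases before a transcription start, and the 250 bases before the start were searched. The core of the ISRE was searched as GAAA, any 2 bases and GAAA again, and for the other strand as TTTC, any 2 bases and TTTC, with overlapping matches joined. The GAS was searched as TTCNNNGAA, which reads the same on both strands, and a GAS match may overlap an ISRE match. Each stretch is given 5′ to 3′ on the strand of its gene, with the matched letters of the motif it is shown for in capitals. The Bst2 and Igtp stretches also hold a GAS match, which is not marked. ISRE core matches are shown for Ifit1 (chr19:34640784-34640833, plus strand), Ifit3 (chr19:34583387-34583436, plus), Isg15 (chr4:156200855-156200904, minus), Oas1a (chr5:120907526-120907559, minus), Bst2 (chr8:71537567-71537616, minus), Gbp2 (chr3:142620584-142620633, plus) and Igtp (chr11:58199502-58199551, plus). GAS matches are shown for Ifit2 (chr19:34550444-34550481, plus) and Psmb8 (chr17:34198078-34198126, plus).
Ifit1: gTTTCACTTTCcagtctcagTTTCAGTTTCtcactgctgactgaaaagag
Ifit3: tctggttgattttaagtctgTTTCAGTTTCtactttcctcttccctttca
Isg15: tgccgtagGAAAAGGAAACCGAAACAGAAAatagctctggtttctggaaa
Oas1a: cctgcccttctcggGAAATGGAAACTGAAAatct
Bst2: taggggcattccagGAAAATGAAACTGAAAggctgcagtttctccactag
Gbp2: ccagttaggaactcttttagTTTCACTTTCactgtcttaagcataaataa
Igtp: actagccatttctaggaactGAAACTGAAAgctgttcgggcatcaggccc
Ifit2: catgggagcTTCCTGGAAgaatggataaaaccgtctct
Psmb8: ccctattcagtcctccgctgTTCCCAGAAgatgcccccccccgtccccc

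The ISRE core was present in 12 of the 29 member windows (41.4%), against 2.98% of all 32851 windows in the table. The GAS letters were present in 7 of the 29 member windows (24.1%), against 7.02% of all windows. In Isg15, Oas1a and Bst2 the matches overlap into 1 longer run, and Ifit1 has a pair of separate matches. These matches are a description of the letters near the start sites and were not used in any comparison.

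Values are log2 of the scanner's processed signal minus the 75th percentile of the array, so that 0 is the level of the 75th percentile probe. Levels of different probes are not comparable, and only differences between arrays are read. All 33 members were well above background on all 16 arrays except Dhx58 (13 arrays), and no member probe was saturated. On the Akt2 probe the control arrays lay at 4.83 to 4.98, the AKT2 KO arrays at 2.43 to 2.64 and the DKO arrays at 2.82 to 3.04, whereas the Akt1 probe read 5.09 to 5.17 in control and 4.86 to 5.43 in AKT1 KO hearts; where it lies relative to the floxed exons is not known here, so it does not check that label. The first principal component over all genes placed the 3 DKO replicates 1, 2 and 4 at 42.5 to 47.8, DKO replicate 3 at 78.6 and the 12 other arrays at -22.9 to -12.3. DKO replicate 3 therefore stands apart, and the DKO calls on the members and lists are given with and without it. The share of probes well above background was 43.1 to 54% over the 16 arrays and 52.4% on DKO replicate 3. The arrays lay on 2 slides with 2 arrays of each group on each, and all comparisons with control share the same 4 control arrays.

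On some arrays nearly all members lay on the same side of the control mean, and on others they were split. Arrays of 1 genotype differed in this. Relative to the control mean, the median over the 33 members was 0.49, 0.52 and 0.56 on DKO replicates 1, 2 and 4, with 32 or 33 of the 33 members above it on each. On DKO replicate 3 the median was -0.44, and 8 of the 33 members were above the control mean. One AKT1 KO heart, replicate 3, stood at 0.46 with 33 of 33 members above the control mean. The 3 other AKT1 KO hearts stood at -0.06, -0.05 and -0.03, with 15, 13 and 13 members above it. In the AKT2 KO group replicates 1 and 2 stood at 0.47 and 0.31 (32 and 31 members above), and replicates 3 and 4 at -0.11 and -0.04 (5 and 14). Control hearts stood at 0.05, -0.02, 0.14 and -0.18 (21, 12, 31 and 2). The median over all tested genes stayed between -0.14 and 0.05 on every array. Slide 1 held replicates 1 and 2 of control, AKT2 KO and DKO, and replicates 2 and 3 of AKT1 KO. Slide 2 held replicates 3 and 4 of control, AKT2 KO and DKO, and replicates 1 and 4 of AKT1 KO. DKO replicate 3 at -0.44 and DKO replicate 4 at 0.56 lay on the same slide, as did AKT1 KO replicates 2 at -0.05 and 3 at 0.46. AKT1 KO replicate 3 and AKT2 KO replicates 1 and 2, at 0.46, 0.47 and 0.31, all lay on slide 1. AKT2 KO replicates 3 and 4, at -0.11 and -0.04, lay on slide 2. The part of the slide in these differences was not tested.

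**Figure D1:**
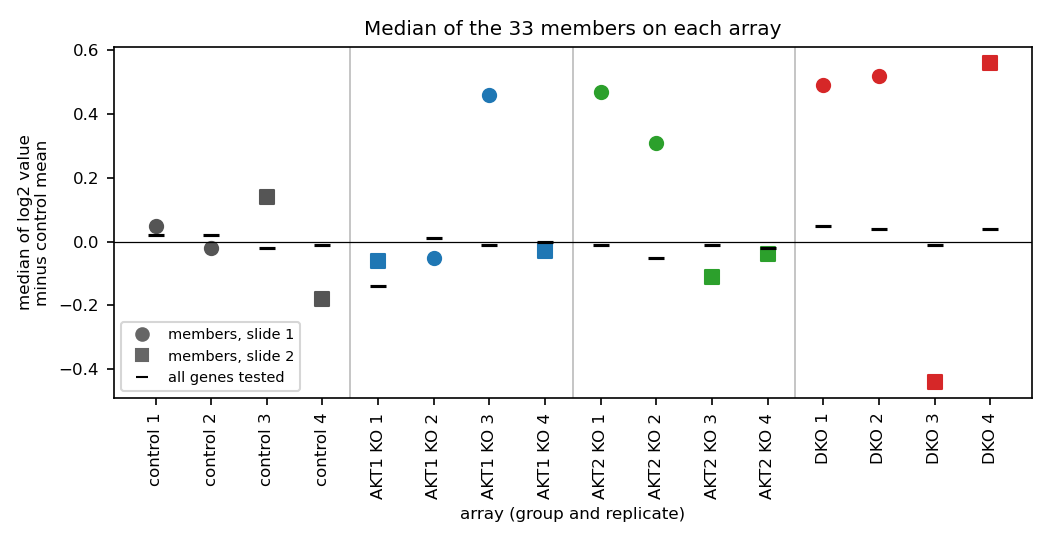
Median, over the 33 interferon response genes, of the log2 value minus the control mean (y axis) on each of the 16 arrays (x axis, group and replicate); circles are arrays of slide 1, squares of slide 2, and short black lines the median over all 13725 genes tested. DKO replicates 1, 2 and 4, AKT1 KO replicate 3 and AKT2 KO replicates 1 and 2 lie between 0.31 and 0.56, and DKO replicate 3 lies at -0.44.

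The spread of the members within a group was wider than that of other genes. The median SD of a member (4 arrays a group) was 0.172 among controls, 0.288 for AKT1 KO, 0.321 for AKT2 KO and 0.522 for DKO, against 0.0901, 0.162, 0.114 and 0.248 over all genes tested. A single array accounted for many of the extremes. AKT1 KO replicate 3 was the highest of its group for 31 of 33 members (93.9%), against 29.6% of all genes tested. DKO replicate 3 was the lowest of its group for 31 of 33 members (93.9%), against 40.9% of all genes tested.

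**Figure D2:**
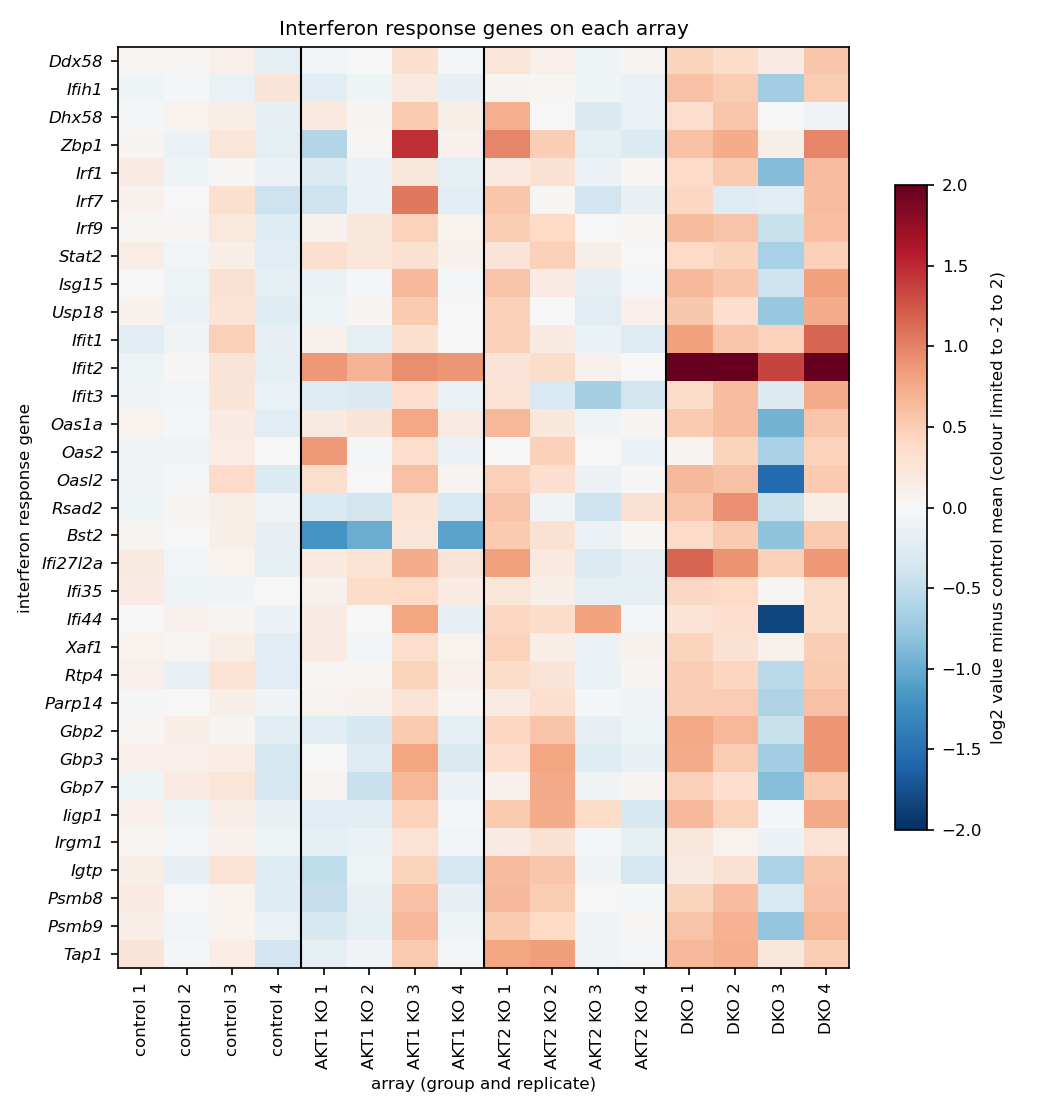
Log2 value minus the control mean (colour, red higher and blue lower, limited to -2 to 2) for the 33 measured interferon response genes (rows, ordered by role) on the 16 arrays (columns). The columns of AKT1 KO replicate 3, AKT2 KO replicates 1 and 2 and DKO replicates 1, 2 and 4 are mostly red, DKO replicate 3 is mostly blue or pale, with Ifit1, Ifit2 and Ifi27l2a red, and Ifit2 is red in all AKT1 KO and DKO columns.

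In DKO against control hearts, 4 of 33 members rose (12.1%), namely Ifit2, Ifi27l2a, Ifit1 and Ddx58, and none fell. The threshold was a limma adjusted p under 0.05 (Benjamini-Hochberg over all 13725 genes), and by the same threshold 45.6% of all genes tested were called, 24.4% as higher and 21.2% as lower. The median change of the 33 members was 0.288 on the log2 scale, against 0.017 for all genes, with 32 of 33 members above 0. Within the slides that median was 0.521 on slide 1 and 0.093 on slide 2, which holds DKO replicate 3. Without DKO replicate 3, 23 of 33 members rose (69.7%) and none fell, against 51.1% of all genes tested called, 28% as higher and 23.1% as lower. The median change was then 0.533, against 0.041 for all genes, with 33 of 33 members above 0. DKO replicates 1, 2 and 4 lay above all 4 control arrays for 28 of 33 members (84.8%), a pattern shown by 32.4% of all genes, while all 4 DKO arrays did so for 3 members (9.09%, all genes 23.8%). The 5 members outside the 28 were Dhx58, Irf7, Oas2, Irgm1 and Igtp. The number of members called thus depended on DKO replicate 3, and why that array differs was not tested.

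**Figure D3:**
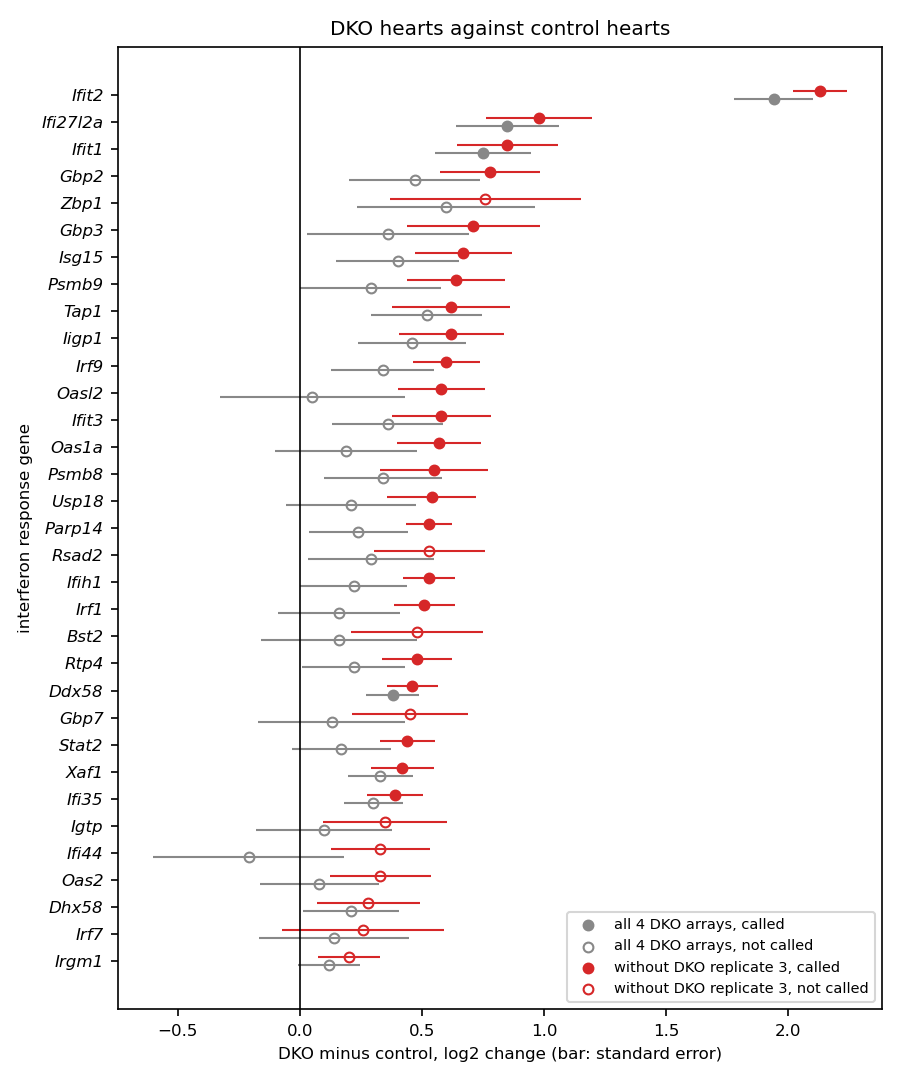
Log2 change of DKO against control hearts (x axis) for each of the 33 members (rows), with all 4 DKO arrays (grey) and without DKO replicate 3 (red); bars are standard errors of the limma fit and filled points are called. Filled grey points are Ifit2, Ifi27l2a, Ifit1 and Ddx58, and 23 red points are filled.

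The IFIT proteins bind foreign or unmodified RNA and block its translation, and their genes lie side by side on chromosome 19 (GRCm38, Ifit2 at 34550550-34576534, Ifit3 at 34583119-34588982 and Ifit1 at 34640889-34650009). Ifit2 read -1.58, -1.46, -1.23 and -1.66 in control hearts and 0.76, 0.56, -0.13 and 0.64 in DKO hearts. In AKT1 KO hearts it read -0.61, -0.80, -0.55 and -0.59, and in AKT2 KO hearts -1.22, -1.11, -1.39 and -1.48. All DKO values, replicate 3 included, lay above all other arrays, all AKT1 KO values lay between DKO and control, and AKT2 KO overlapped control. The DKO change was 1.94 ± 0.163 (log2 change ± SE, 3.84-fold, limma adjusted p = 5.54e-07, n = 4 per group) and 2.13 ± 0.112 without DKO replicate 3 (limma adjusted p = 1.31e-08). Ifit2 was also the 1 member of 33 called in AKT1 KO against control hearts (3.03%), where 0.794% of all genes were called, 0.415% as higher. Its change there was 0.84 ± 0.163 (1.79-fold, limma adjusted p = 0.0242, n = 4 per group). That call was lost, at an adjusted p of 0.0576 to 0.0926, when any 1 of control replicates 1, 2 and 4 and AKT1 KO replicates 1, 3 and 4 was left out, while the change stayed between 0.78 and 0.85.

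Ifit1 was not called in either single knockout. It read -2.25, -2.09, -1.55 and -2.19 (control), -1.94, -2.21, -1.70 and -2.01 (AKT1 KO), -1.55, -1.84, -2.15 and -2.28 (AKT2 KO) and -1.19, -1.47, -1.56 and -0.85 (DKO). DKO replicates 1, 2 and 4 lay above every array of the 3 other groups, DKO replicate 3 was just under the highest control, and both single knockouts overlapped control. Its DKO change was 0.75 ± 0.198 (1.68-fold, limma adjusted p = 0.00635) and 0.85 ± 0.208 without replicate 3 (limma adjusted p = 0.00387). Ifit3 read -0.09, -0.09, 0.24 and -0.16 (control), -0.29, -0.32, 0.31 and -0.15 (AKT1 KO), 0.26, -0.33, -0.69 and -0.40 (AKT2 KO) and 0.35, 0.59, -0.30 and 0.72 (DKO). DKO replicate 3 of Ifit3 lay below all controls and the other DKO hearts above them. The change of Ifit3 against control was 0.36 ± 0.228 (limma adjusted p = 0.208) with all arrays and 0.58 ± 0.201 (limma adjusted p = 0.0278) without replicate 3. The Ifit genes form a family, and whether signal of one reaches the probe of another was not tested.

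**Figure D4:**
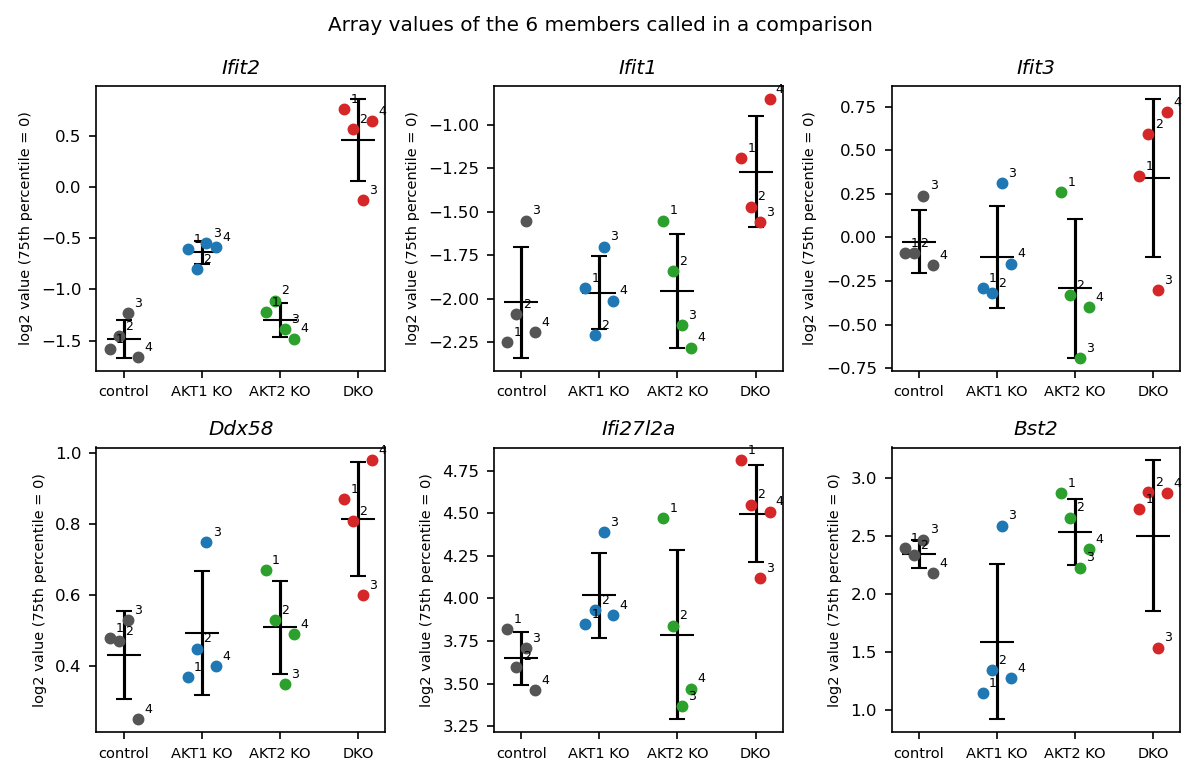
Log2 value (y axis, 0 is the 75th percentile of the array) of the 6 members called in any comparison, by group (x axis); numbered points are the 4 replicates, the horizontal mark is the group mean and the bar 1 SD. Ifit2 separates DKO and AKT1 KO from control, and Bst2 is low in AKT1 KO replicates 1, 2 and 4 and in DKO replicate 3.

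Of the 4 sensors, Ddx58, which encodes the RNA helicase RIG-I, was called with all DKO arrays. It read 0.48, 0.47, 0.53 and 0.25 (control), 0.37, 0.45, 0.75 and 0.40 (AKT1 KO), 0.67, 0.53, 0.35 and 0.49 (AKT2 KO) and 0.87, 0.81, 0.60 and 0.98 (DKO). All 4 DKO values lay above the 4 controls, though DKO replicate 3 overlapped both single knockouts. The change was 0.38 ± 0.108 (1.30-fold, limma adjusted p = 0.00963, n = 4 per group) and 0.46 ± 0.104 without replicate 3 (limma adjusted p = 0.00243). A mean over its kept probes gave 0.22 and ended the call (limma adjusted p = 0.207). Ifih1, which encodes the RNA sensor MDA5, read -0.21, -0.29 and -0.28 on DKO replicates 1, 2 and 4 and -1.48 on replicate 3, against -0.93 to -0.54 in control. It rose by 0.53 ± 0.107 without replicate 3 (limma adjusted p = 0.00107). Zbp1, a sensor of Z-form nucleic acids, had its highest value of the 16 arrays on AKT1 KO replicate 3 (-0.80, control -2.44 to -2.01), and neither Zbp1 nor Dhx58, which encodes LGP2, was called with or without DKO replicate 3.

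None of the 4 transcription factor genes was called with all arrays. Irf9, which encodes the DNA-binding part of the STAT complex, had the smallest p of the 4. It read 1.08, 1.08, 1.28 and 0.82 (control), 1.15, 1.28, 1.52 and 1.14 (AKT1 KO), 1.56, 1.47, 1.07 and 1.09 (AKT2 KO) and 1.70, 1.63, 0.61 and 1.66 (DKO). DKO replicates 1, 2 and 4 were the highest of the 16 arrays, and replicate 3 was the lowest. Irf9 changed by 0.34 ± 0.211 (limma adjusted p = 0.205) with all arrays and rose by 0.60 ± 0.137 (1.52-fold, limma adjusted p = 0.00245) without replicate 3. Without that array Irf1, a GAS-driven transcription factor, rose by 0.51 and Stat2 by 0.44 (limma adjusted p = 0.00411 and 0.00512). A second kept probe of Irf1 gave 0.34 without that array. Irf7, which amplifies type I interferon production, was not called without it (0.26 ± 0.332). Irf7 was highest on AKT1 KO replicate 3, at 3.78 against 2.32 to 3.05 in control.

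Isg15 encodes a ubiquitin-like modifier and Usp18 the protease that removes it. Isg15 read 1.96, 1.87, 2.27 and 1.78 (control), 1.83, 1.95, 2.62 and 1.93 (AKT1 KO), 2.54, 2.14, 1.80 and 1.93 (AKT2 KO) and 2.62, 2.52, 1.55 and 2.79 (DKO). Values above all controls occurred in every knockout group, and DKO replicate 3 was the lowest of the 16 arrays. The DKO change of Isg15 was 0.40 ± 0.253 (limma adjusted p = 0.212), and without replicate 3 it rose by 0.67 ± 0.200 (1.59-fold, limma adjusted p = 0.0124). Usp18 rose by 0.54 without that array (limma adjusted p = 0.0235).

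The OAS enzymes make 2′-5′ oligoadenylates that activate RNase L. Oas1a read 0.95, 0.86, 1.06 and 0.66 (control), 1.06, 1.13, 1.65 and 1.04 (AKT1 KO), 1.55, 1.10, 0.81 and 0.94 (AKT2 KO) and 1.41, 1.5, -0.07 and 1.44 (DKO). The highest value was AKT1 KO replicate 3 and the lowest DKO replicate 3. Its change was 0.34 ± 0.291 in AKT1 KO (limma adjusted p = 0.947) and 0.19 ± 0.291 in DKO hearts (limma adjusted p = 0.625), and 0.57 ± 0.173 in DKO without replicate 3, which was called (limma adjusted p = 0.014). Oasl2 read 0.62, 0.55 and 0.51 on DKO replicates 1, 2 and 4 and -1.58 on replicate 3, against -0.30 to 0.36 in control, and rose by 0.58 without that array (limma adjusted p = 0.0136). Oas2 was not called either way. Rsad2, which encodes the antiviral radical SAM enzyme viperin, read 0.76, 0.91, 0.97 and 0.78 (control), 0.56, 0.49, 1.14 and 0.54 (AKT1 KO), 1.42, 0.78, 0.45 and 1.16 (AKT2 KO) and 1.42, 1.76, 0.41 and 0.99 (DKO). Every knockout group overlapped control for Rsad2. Its DKO change was 0.29 ± 0.258 (limma adjusted p = 0.381) and 0.53 ± 0.227 without replicate 3, just short of a call (limma adjusted p = 0.0644). A second kept probe of Rsad2 gave smaller DKO changes, 0.05 with all arrays and 0.36 without replicate 3. In AKT1 KO hearts that probe gave -0.55, against -0.17 on the probe shown.

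Of the 7 membrane and other effector genes, Ifi27l2a, a small interferon-induced membrane protein gene, was called with all arrays. It read 3.82, 3.6, 3.71 and 3.46 (control), 3.85, 3.93, 4.39 and 3.90 (AKT1 KO), 4.47, 3.84, 3.37 and 3.47 (AKT2 KO) and 4.81, 4.55, 4.12 and 4.51 (DKO). All DKO and all AKT1 KO values lay above the 4 controls, and AKT2 KO overlapped both control and DKO. The DKO change was 0.85 ± 0.212 (1.80-fold, limma adjusted p = 0.00455) and 0.98 ± 0.217 without replicate 3 (limma adjusted p = 0.00206), and the AKT1 KO change of 0.37 ± 0.212 was not called (limma, unadjusted p = 0.103). Ifi27l2a and Ifit2 were the 2 members (6.06%) with all AKT1 KO arrays above all controls, against 2.9% of all genes. Ifi27l2a lies on chromosome 12, 9.2 Mb from Akt1.

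Without DKO replicate 3, Ifi35, Xaf1, Rtp4 and Parp14 also rose, by 0.39 to 0.53 (limma adjusted p from 0.000413 for Parp14 to 0.016 for Xaf1). Parp14, an ADP-ribosyltransferase, read 2.02, 2.03 and 2.11 on DKO replicates 1, 2 and 4 and 0.92 on replicate 3, against 1.46 to 1.64 in control. Ifi44 showed the widest gap of that array, with -0.94, -0.89 and -0.85 on the other DKO hearts and -3.06 on replicate 3 (control -1.34 to -1.15), and it was not called either way.

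Bst2 encodes tetherin, which holds budding virus particles at the cell surface, and lies on chromosome 8 (71534255-71537472, GRCm38). It read 2.40, 2.34, 2.47 and 2.18 (control), 1.15, 1.35, 2.59 and 1.28 (AKT1 KO), 2.87, 2.66, 2.23 and 2.39 (AKT2 KO) and 2.73, 2.88, 1.54 and 2.87 (DKO). AKT1 KO replicates 1, 2 and 4 and DKO replicate 3 lay below all controls, and AKT1 KO replicate 3 lay above them. The AKT1 KO change of -0.76 ± 0.319 was not called (limma adjusted p = 0.574), nor was the DKO change of 0.16 ± 0.319 (limma adjusted p = 0.721). DKO exceeded AKT1 KO hearts by 0.91 ± 0.319 (1.88-fold, limma adjusted p = 0.0296), but at an adjusted p of 0.0686 to 0.0865 this was lost without AKT1 KO replicate 1, 2 or 4 or DKO replicate 1, 2 or 4. Without DKO replicate 3 the difference was 1.23 ± 0.270 (limma adjusted p = 0.00179).

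Genes near Bst2 were also called in AKT1 KO hearts. Within 10 Mb of it, 12 of 139 tested genes were called in AKT1 KO against control (8.63%), against 0.794% of all genes and 1.87% of the rest of chromosome 8. AKT1 KO replicate 3 was the nearest to the control mean of the 4 AKT1 KO arrays for 10 of the 12 called genes. The exceptions were Csgalnact1 and Ssbp4, and the share of all genes with that pattern was not counted. Replicates 1, 2 and 4 all lay outside the control range on the same side for 59 of the 139 genes. For 14 of the 59 replicate 3 did not lie there with them. On the rest of chromosome 8 this held for 32 of 103 such genes, and over all 13725 genes for 892 of 2153. Among such genes, replicate 3 thus parted from the other replicates for a smaller share near Bst2 than over all genes. B3gnt3, 0.16 Mb away, read -2.94, -3.13 and -2.60 relative to the control mean on replicates 1, 2 and 4 and -0.64 on replicate 3. Ocel1, 0.16 Mb to the other side, read 1.77, 2.04 and 2.03 there and 1.47 on replicate 3. Map1s read -0.84, -0.62 and -0.73 there and -0.26 on replicate 3, and Zfp963, 1.79 Mb away, read 2.39, 2.01 and 2.13 there and 1.24 on replicate 3. In Ssbp4 the values were 0.32, 0.49 and 0.51 there and 0.44 on replicate 3. These genes and the tally were chosen after their values were seen, and the part of this region's differences in the Bst2 values was not tested.

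**Figure D5:**
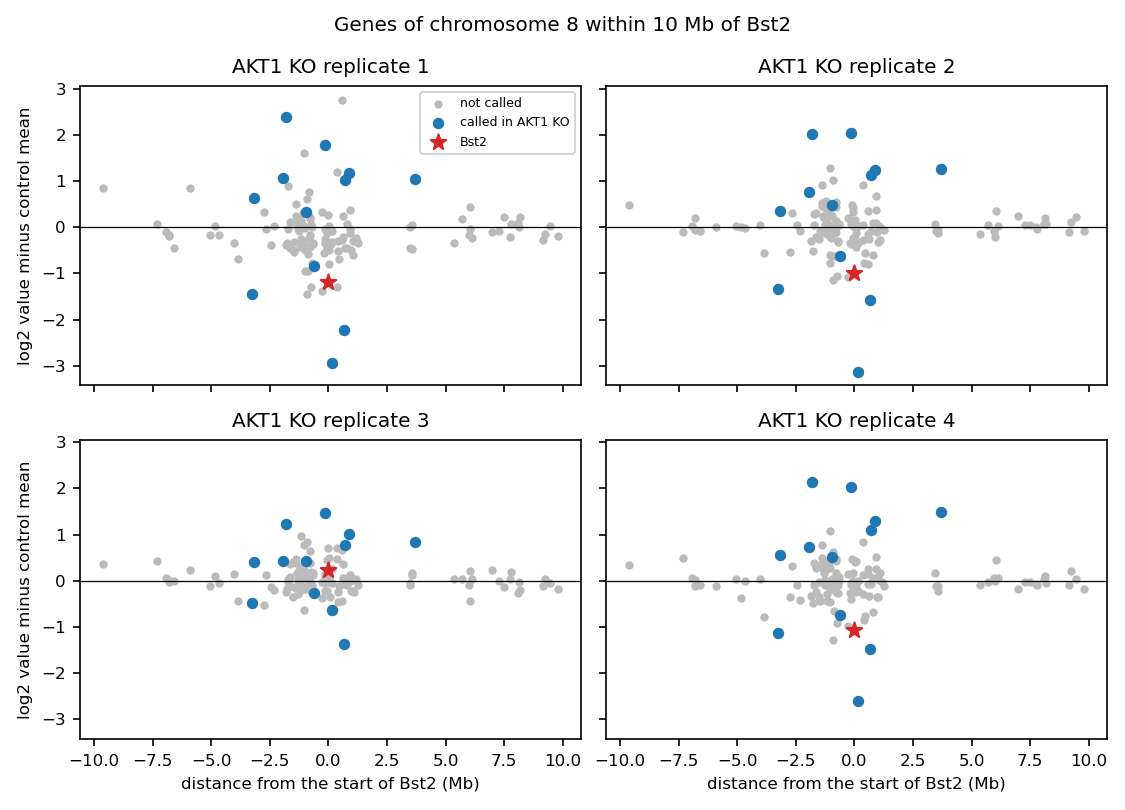
Log2 value minus the control mean (y axis) for the 139 tested genes of chromosome 8 within 10 Mb of Bst2, by distance from the start of Bst2 (x axis, Mb), on each AKT1 KO array; blue points are the 12 genes called in AKT1 KO and the star is Bst2. Bst2 lies at -1.19, -1 and -1.07 on replicates 1, 2 and 4 and at 0.24 on replicate 3, and called genes lie on both sides of 0.

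The 6 guanylate-binding and immunity-related GTPase genes, most of them strongly induced by interferon gamma, had no call with all arrays. Iigp1 had the smallest p of these. It read 2.59, 2.41, 2.62 and 2.34 (control), 2.27, 2.28, 2.95 and 2.46 (AKT1 KO), 3.02, 3.23, 2.86 and 2.17 (AKT2 KO) and 3.14, 2.95, 2.47 and 3.24 (DKO). DKO replicates 1, 2 and 4, AKT1 KO replicate 3 and AKT2 KO replicates 1, 2 and 3 lay above all controls. DKO replicate 3 lay within the control range. Its DKO change was 0.46 ± 0.220 (limma adjusted p = 0.103), and without replicate 3 it rose by 0.62 ± 0.216 (limma adjusted p = 0.0281). Gbp2 and Gbp3 also rose without that array, by 0.78 and 0.71 (limma adjusted p = 0.00618 and 0.0421), while Gbp7, Irgm1 and Igtp were not called. Gbp2 read 1.89, 1.79 and 2.01 on DKO replicates 1, 2 and 4, 0.68 on replicate 3, 1.64 on AKT1 KO replicate 3, 1.52 and 1.68 on AKT2 KO replicates 1 and 2, and 0.91 to 1.25 in control.

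Psmb8 and Psmb9 encode immunoproteasome subunits and Tap1 a peptide transporter of class I antigen presentation, and all 3 lie within the major histocompatibility region of chromosome 17. Tap1 read 0.15, -0.13, 0.04 and -0.49 (control), -0.29, -0.17, 0.42 and -0.14 (AKT1 KO), 0.68, 0.73, -0.18 and -0.13 (AKT2 KO) and 0.54, 0.60, 0.11 and 0.39 (DKO). The highest values were those of AKT2 KO replicates 1 and 2, and DKO replicate 3 was just under the highest control. Its DKO change was 0.52 ± 0.227 (1.43-fold, limma adjusted p = 0.0756) and without replicate 3 0.62 ± 0.242, which was called (limma adjusted p = 0.0454). Psmb9 rose by 0.64 and Psmb8 by 0.55 without that array (limma adjusted p = 0.0159 and 0.0499).

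By role, DKO replicate 3 was not low throughout. Its median relative to the control mean was 0.46 over the 3 Ifit genes and 0.05 over the 4 sensors. It was -0.95 over the 3 OAS genes, -0.59 over Isg15 and Usp18, -0.55 over the transcription factors, -0.54 over both the 7 effector genes and the 6 GTPase genes, and -0.30 over the antigen processing genes. On DKO replicates 1, 2 and 4 the same medians ran from 0.40 to 1.17 in these 8 groups.

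In AKT2 KO against control hearts, none of the 33 members was called by limma, and none had an unadjusted p under 0.05, where 0.131% of all genes were called. The median change was 0.142 (all genes -0.021), with 0.356 on slide 1 and -0.07 on slide 2. In AKT1 KO hearts the median change was 0.076 (all genes -0.032), with 0.205 on slide 1 and -0.051 on slide 2, and -0.067 without AKT1 KO replicate 3. Between the single knockouts, AKT2 KO against AKT1 KO, none of the 33 was called by limma, with 3 at an unadjusted p under 0.05 and 0.896% of all genes called. Those 3 were Ifit2, lower in AKT2 KO by a change of -0.66 ± 0.163 (limma adjusted p = 0.0873), Bst2 at 0.94 ± 0.319 (limma adjusted p = 0.319) and Ifi35 at -0.26 ± 0.121 (limma adjusted p = 0.663). Leaving out AKT1 KO replicate 3 gave a call for Bst2, and leaving out DKO replicate 3 gave one for Ifit2.

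DKO hearts exceeded AKT1 KO hearts for 4 members (12.1%), where 47% of all genes were called and 26.7% were higher. They exceeded AKT2 KO hearts for 5 members (15.2%), where 42.1% of all genes were called and 23.5% were higher. Ddx58, Ifit1 and Ifit2 were in both sets, Bst2 in the first, and Ifit3 and Ifi27l2a in the second. Ifit2 exceeded AKT1 KO by 1.10 ± 0.163 (limma adjusted p = 9.11e-05) and AKT2 KO by 1.76 ± 0.163 (limma adjusted p = 1.64e-06). Ddx58 exceeded AKT1 KO by 0.32 ± 0.108 (limma adjusted p = 0.0235), a call lost without AKT1 KO replicate 1, 2 or 4 or DKO replicate 1 or 4 (limma adjusted p of 0.0534 to 0.0694). It exceeded AKT2 KO by 0.31 ± 0.108 (limma adjusted p = 0.0339), lost without AKT2 KO replicate 2, 3 or 4 or DKO replicate 1, 2 or 4 (limma adjusted p of 0.0568 to 0.107). Without DKO replicate 3 these differences of Ddx58 were 0.40 and 0.38 (limma adjusted p = 0.0059 and 0.00872). For Ifi27l2a the excess over AKT2 KO was 0.71 ± 0.212 (limma adjusted p = 0.0149), lost without AKT2 KO replicate 3 or 4 (limma adjusted p = 0.0544 and 0.0502). Ifit3 exceeded AKT2 KO by 0.63 ± 0.228 (limma adjusted p = 0.0388), a call that was lost, at an adjusted p of 0.0668 to 0.123, without AKT2 KO replicate 2, 3 or 4 or DKO replicate 1, 2 or 4. Without DKO replicate 3, 16 members exceeded AKT1 KO hearts (48.5%, all genes 53.7% called and 31.3% higher) and 12 exceeded AKT2 KO hearts (36.4%, all genes 47.5% called and 27.2% higher). Gbp2 then exceeded AKT1 KO by 0.83 ± 0.205 and AKT2 KO by 0.60 ± 0.205 (limma adjusted p = 0.0039 and 0.0283).

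The double knockout was also compared with the sum of the single knockout changes. Ifit2 was the 1 of 33 members (3.03%) that departed from that sum, where 26% of all genes did, 15.9% in the higher direction. Its DKO value exceeded the sum of both single changes by 0.91 ± 0.231 (limma adjusted p = 0.00995, n = 4 per group). Without DKO replicate 3 the departure of Ifit2 was 1.11 ± 0.152 (limma adjusted p = 0.000135), and Ifih1, Irf1, Ifit3 and Bst2 departed as well (5 members, 15.2%, all genes 35%), each in the higher direction (all genes 21.9%).

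The other genes of the pathway were taken from lists of ligands, receptors, regulators, sensors and further targets. Their counts stand beside those of all genes in DKO against control, of which 24.4% rose and 21.2% fell with all arrays, and 28% rose and 23.1% fell without replicate 3. Of 10 interferon ligand genes, 9 had a probe and only Ifnl3 was bright enough to be tested. Ifnl3 was not called in any comparison with control, and Ifnb1, Ifng and the Ifna genes did not pass the filter on dim probes. Of 15 receptor and JAK-STAT genes, 5 rose and 2 fell in DKO against control, and 7 rose and 1 fell without replicate 3. Ifnlr1, the interferon lambda receptor, rose by 0.93 ± 0.135 (limma adjusted p = 7.47e-05), Ifnar2 by 0.36 ± 0.0846 (limma adjusted p = 0.00283) and the receptor chain gene Ifngr2 changed by -0.98 ± 0.195 (limma adjusted p = 0.00095). Without replicate 3 these changes were 1.06, 0.29 and -0.71 (limma adjusted p = 3.11e-06, 0.00367 and 4.14e-05).

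Of 9 negative regulators, 2 rose and none fell in DKO hearts, and without replicate 3, 2 rose and 1 fell (all genes 28% and 23.1%). Socs3, a feedback inhibitor of JAK signalling, read 0.81, 1.36, 2.52 and 0.70 in DKO and -0.19 to 0.17 in control hearts, a change of 1.39 ± 0.300 (limma adjusted p = 0.00166), with replicate 3 the highest. Socs1 rose by 0.53 ± 0.183 (limma adjusted p = 0.0299) and read -1.93 on replicate 3, below the control values of -1.87 to -1.69. Without replicate 3, Socs3 rose by 1 and Socs1 by 0.74 (limma adjusted p = 0.000421 and 0.000318). Of 22 tested genes of the sensing pathways, 4 rose and 4 fell (all genes 24.4% and 21.2%), and 6 rose and 4 fell without replicate 3. Mavs, the mitochondrial adaptor of RIG-I and MDA5, read 2.21, 2.05, 1.55 and 2.14 in DKO and 3.07 to 3.13 in control hearts, a change of -1.12 ± 0.140 (limma adjusted p = 1.95e-05). Tlr4, the endotoxin receptor, rose by 1.14 ± 0.255 (limma adjusted p = 0.00224). Without replicate 3, Mavs changed by -0.97 and Tlr4 by 1.45 (limma adjusted p = 8.84e-06 and 1.66e-05).

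Of 33 further type I targets, 6 rose and 2 fell in DKO hearts (all genes 24.4% and 21.2%), and 12 rose and 2 fell without replicate 3 (all genes 28% and 23.1%). Ifit1bl1, a neighbour of Ifit1, read -0.72, -0.85, -1.80 and -0.87 in DKO and -3.16 to -2.60 in control hearts, a change of 1.76 ± 0.210 (limma adjusted p = 1.37e-05). Of 14 further interferon gamma targets, 2 rose and 1 fell, and 6 rose and 1 fell without replicate 3, where 28% of all genes rose and 23.1% fell. Cxcl10, a chemokine gene, read -1.71, -1.60, -1.73 and -1 in DKO and -3.70 to -3.14 in control hearts, a change of 1.87 ± 0.361 (limma adjusted p = 0.000733), and unlike most members it was not low on replicate 3. Both Cxcl10 and Ifit1bl1 read low in control hearts, where Dhx58, not well above background on every array, read -3.31 to -3.02. A probe could pass the filter on dim probes through 1 group, so the sizes of both changes are uncertain. Of 16 class I antigen processing genes, 5 rose and 1 fell, and 9 rose and 1 fell without replicate 3, again beside 24.4% and 28% of all genes that rose. H2-K1, a class I heavy chain gene, read 5.61, 5.93, 5.60 and 5.85 in DKO and 4.65 to 5.04 in control hearts, a change of 0.82 ± 0.177 (limma adjusted p = 0.00166). Without replicate 3 the changes of Ifit1bl1, Cxcl10 and H2-K1 were 2.01, 1.94 and 0.87 (limma adjusted p = 2.71e-07, 0.00117 and 0.00194). With all arrays none of the genes of these pathway lists was called in either single knockout. The AKT1 KO values of Ifit1bl1, -2.29, -2.23, -2 and -2, lay above all controls, and its change of 0.69 ± 0.210 (limma adjusted p = 0.251) was called in the fit without DKO replicate 3 (limma adjusted p = 0.0196).

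Marker genes of cell types moved with genotype in DKO hearts in another pattern. All 8 fibroblast markers rose and 9 of 10 heart muscle cell genes fell, with and without replicate 3 (all genes 24.4% higher and 21.2% lower with all arrays). The natriuretic peptide gene Nppa, of the same heart muscle list, was higher by 2.49 ± 0.270 (limma adjusted p = 5.59e-06, and 2.45 at 1.77e-05 without replicate 3). All 10 heart muscle cell genes passed the filter on dim probes, as the tissue label requires. Of 16 macrophage and monocyte markers, 7 rose and none fell, and without replicate 3, 6 rose and none fell (all genes 28% and 23.1%). The median of the fibroblast markers relative to the control mean was 1.19 on DKO replicate 3 and 0.83 to 1 on the other DKO hearts, and that of the macrophage markers 0.64 against 0.18 to 0.73. Other lists were lower on replicate 3 than on DKO replicates 1, 2 and 4: the 8 endothelial markers stood at -0.36 against 0.05, 0.11 and 0.08. The 7 class II antigen presentation genes stood at -0.27 against 0.08, 0.90 and 0.30, and the 3 erythroid genes at -0.78 against -0.07, 0.80 and 0.15. In the other groups the median of the 16 macrophage markers was -0.1 to 0.08 (control), -0.23 to 0.31 (AKT1 KO) and -0.26 to 0.61 (AKT2 KO). It was 0.31 on AKT1 KO replicate 3, and 0.61 and 0.17 on AKT2 KO replicates 1 and 2. The median of the 9 tested T and NK cell markers ran from -0.33 to 0.21 in control. In the knockout groups it ran from -0.29 to 0.78, highest on AKT2 KO replicate 1. Cd8a, Cd3g, Ncr1, Klrb1c and Gzmb of that list did not pass the filter on dim probes. On AKT1 KO replicate 3 and AKT2 KO replicates 1 and 2, 3 neutrophil markers stood at 1.59, 2.3 and 1.22 (control -0.99 to 0.43). They also stood at 1.22 on AKT1 KO replicate 2 and 2.16 on DKO replicate 2. On the same 3 single knockout arrays, 3 B cell markers stood at 0.15, 0.68 and -0.12 (control -0.36 to 0.31). The part of other cell types in the array-to-array differences was not tested.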

How the data were processed

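RNA was labelled with Cy3 and hybridised to 16 one-colour Agilent arrays, 1 mouse each. The deposited scanner files hold background-corrected, processed spot intensity from Agilent Feature Extraction 12.0.3.1, per the file headers. The authors' deposited log2 values of the same arrays, used as an alternative, follow quantile-normalised, gene-centred intensities (correlation 0.984 to 0.999 per array) with unstated direction and scale. Here each array's log2 signal was centred on its 75th percentile. Kept probes were flagged well above background by the scanner on every array of 1 or more groups, and the brightest kept probe stood for a gene. limma 3.58.1 (R 4.3.3) fitted 1 mean per group over 16 arrays with 12 residual degrees of freedom and Benjamini-Hochberg adjustment over 13725 genes, and was tested on simulated data. The number of arrays limits the precision. Members called in any comparison are given on every array, as is, in a role group without a call, the member with the smallest p against control; of the other lists, up to 4 called genes with the smallest adjusted p could be named. One gene of these lists is not reported here. Members and lists were chosen with earlier results of these data known. Gene positions are from RefSeq (GRCm38.p6). Alternatives were other background corrections, normalisations, filters, blocks and left-out arrays. No sample columns were left unused (0).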

Additional observations from a re-analysis of the deposited data

Results flagged for a closer look

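Single arrays lay far from the 3 others of their group in 21 of 132 combinations of member and group (Dixon's criterion, which chance meets in about 1 of 20 groups). The members share arrays, so these cases are not independent. The criterion was not applied to the other genes tested, so no share over all genes stands beside these counts. Over all genes, DKO replicate 3 was the lowest of its group for 40.9% and the highest for 38.5%. In 14 of them DKO replicate 3 was the lowest. Its log2 value there was -1.48 for Ifih1, 1.59 for Irf1, 0.61 for Irf9, -0.16 for Stat2, -0.07 for Oas1a, -1.58 for Oasl2 and 1.54 for Bst2. It was 3.25 for Ifi35, -3.06 for Ifi44, 0.95 for Rtp4, 0.92 for Parp14, 0.68 for Gbp2, -1.84 for Gbp7 and 0.64 for Psmb9. In 6 cases AKT1 KO replicate 3 was the highest, at 2.62 for Isg15, 1.65 for Oas1a, 1.14 for Rsad2, 2.59 for Bst2, 4.39 for Ifi27l2a and 1.64 for Gbp2. In the last, control replicate 4 was the lowest for Gbp3, at 0.27 against 0.72 to 0.77 in the other controls.

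Ifit2 departed from the sum of the single knockout changes by 0.91 on the log2 scale (limma adjusted p = 0.00995). Of all genes 26% departed from that sum, 15.9% in the same direction as Ifit2. What lies behind the departure was not tested.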

How the results depend on the processing

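No direction of a named call turned. Leaving out each array in turn gave 0 to 1 called members in AKT1 KO, 0 to 0 in AKT2 KO and 4 to 23 in DKO against control, 2 to 16 in DKO against AKT1 KO, 2 to 12 in DKO against AKT2 KO, 0 to 1 in AKT2 KO against AKT1 KO and 1 to 5 for the departure from additivity; the highest DKO counts are those without DKO replicate 3. The median changes then ranged from -0.067 to 0.178 in AKT1 KO, 0.068 to 0.241 in AKT2 KO and 0.174 to 0.533 in DKO hearts. Array weights gave 2, 25, 19, 17, 2 and 9 calls in AKT1 KO, DKO against control, DKO against AKT1 KO, DKO against AKT2 KO, AKT2 KO against AKT1 KO (Ifit2 and Bst2) and additivity. Slide as a block, with or without row, gave 7 in DKO against control, and slide and row blocks 0 in AKT1 KO. Within slide 1 there were 0, 11 and 2 calls in AKT1 KO, DKO against control and DKO against AKT2 KO. Within slide 2 there were 0, 2, 0, 2 and 0 in AKT1 KO, DKO against control, DKO against AKT1 KO, DKO against AKT2 KO and additivity, with median changes of -0.051 in AKT1 KO and -0.07 in AKT2 KO hearts; these fits have fewer arrays. Without the filter on dim probes there were 0, 2 and 3 calls in AKT1 KO, DKO against AKT1 KO and DKO against AKT2 KO. With only the groups compared there were 2, 2 and 1 (Ifit2) in DKO against AKT1 KO, DKO against AKT2 KO and AKT2 KO against AKT1 KO. Chosen after seeing the data, leaving out DKO replicate 3 together with quantile normalisation, the authors' values or slide as a block gave 20, 20 and 23 members in DKO against control, all among the 23 of the report. With all arrays, quantile normalisation and the authors' values each gave the same 4 genes as the report, and normexp added Xaf1. The causes of these shifts were not tested beyond the arrays left out.

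Deviations from group means of same-numbered arrays correlated at -0.35 to 0.392 over 24 pairs (median 0.142, against -0.077 for arrays of other numbers), and 15 of the 24 were over 0.1, so not every pair reached the level asked for pairing. In control, AKT2 KO and DKO hearts the number coincides with slide and row, and these cannot be told apart there. With the replicate block there were 0 calls in AKT1 KO, 4 in DKO against control, 3 in DKO against AKT1 KO and 3 in DKO against AKT2 KO, 0 in AKT2 KO and in AKT2 KO against AKT1 KO, and 1 for additivity.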
